A study of Mus musculus with 84 samples.

Results

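WT MMC9 cells in which the IL-4 receptor alpha chain transcript Il4ra was detected were set against WT MMC9 cells in which it was not. MMC9s are mucosal mast cells of the small intestine that make IL-9 in food allergy. Of 81 cells sequenced singly, 68 were kept: those with 10000 or more reads in genes, under 20% mitochondrial reads and under 10% immunoglobulin reads. A cell with 10 or more Il4ra reads was called Il4ra-detected (29 of 68 cells, 42.6%, exact 95% interval 30.7% to 55.2%), and the other 39 were called Il4ra-undetected. The groups were chosen by the Il4ra reads measured in the same cells, and the Il4ra levels given here describe the choice and test nothing.

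All cells came from BALB/c WT mice taken through sensitization with ovalbumin and alum and repeated oral ovalbumin challenges. The gate took Lin- cells with high IL-4GFP and low β7-integrin that were c-Kit+ and ST2+ but IL-17RB2-, so Il4, Kit and Il1rl1 (which encodes ST2) were part of the gate. The labels name no animal for the cells, which were therefore treated as 1 sample: no test was possible between the groups of cells, and every SD below is over cells. The series also holds 3 bulk libraries of small-intestinal MMC9s, 1 each for IL4RaY709F, a gain-of-function receptor, for IL4Ra-/-, its loss of function, and for WT. In this adoptive transfer model, per the labels, sensitized WT mice were reconstituted with marrow progenitors of 1 genotype and then had 7 oral ovalbumin challenges, 3 per week. Each bulk RNA was pooled from 12 to 20 biological replicates, and how the bulk cells were gated is not stated in the sources used here.

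The IL-4 receptor alpha chain binds IL-4 and pairs with the common gamma chain Il2rg in the type I receptor, or with Il13ra1 in the type II receptor, which also binds IL-13. The chains carry the kinases JAK1, JAK3 and TYK2, which phosphorylate STAT6, and STAT6 then enters the nucleus and binds DNA. In mast cells IL-4 acts on growth, survival and cytokine production, and mast cells also make IL-4 themselves.

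The Il4ra gene lies on chromosome 7 at 125552120 to 125579474 on the plus strand (GRCm38). Sequence before the start is shown for Il4ra, which defined the groups, and for Stat6, the transcription factor of the receptor and the member of its pathway that differed most between the groups. Windows of 250 bases before the RefSeq start were read from the RefSeq table of GRCm38.p6. The Il4ra window reaches 125552270 and so overlaps the first exon of the longest GENCODE transcript (125552120 to 125552328); the 99 bases before that exon, chr7:125552021-125552119, are printed. The Stat6 window, chr10:127642736-127642985, is printed whole. Both are on the plus strand, and capitals would mark a match to a motif searched, of which the printed bases hold none.
Il4ra: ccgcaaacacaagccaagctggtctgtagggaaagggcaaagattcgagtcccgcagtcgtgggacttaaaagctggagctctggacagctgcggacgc
Stat6: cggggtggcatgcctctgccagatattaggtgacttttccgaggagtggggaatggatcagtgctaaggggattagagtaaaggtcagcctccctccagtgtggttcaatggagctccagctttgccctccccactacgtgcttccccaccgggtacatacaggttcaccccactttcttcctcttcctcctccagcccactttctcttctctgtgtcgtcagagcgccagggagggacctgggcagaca

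Both strands of the windows of 250 bases were searched for 4 motifs: TTC and GAA set 4 bases apart for STAT factors, TGANTCA for AP-1, TGACGTCA for the CRE element, and the octamer ATGNAAAT, which was chosen after the sequence was read. The Stat6 window matched none of the 4. The Il4ra window held the octamer 3 times, at 125552132, 125552204 and 125552237, all inside the exon named above and 139, 67 and 34 bases before the RefSeq start, and had no match to the other motifs. Of 32851 promoter windows searched, 5.03% held the octamer at least once and 12 (0.0365%) held it 3 times or more. Windows on chromosome 18 were not among them. A match is a description of letters and not a shown binding site.

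Il4ra split the cells cleanly. Il4ra-detected cells had 20, 298 and 2600 Il4ra reads (lowest, median and highest), against 0, 0 and 5 reads in Il4ra-undetected cells. As CPM, reads scaled to the same total of gene reads per cell, this was 13.8, 243 and 1859 in Il4ra-detected cells, against 0, 0 and 4.48 in Il4ra-undetected cells. No cell lay between 5 and 20 reads, and the next cells beyond the 2 at its edges had 36 reads in the Il4ra-detected group and 4 in the Il4ra-undetected group. Among the Il4ra-undetected cells, 23 had no Il4ra read and 16 had 1 to 5. Among the Il4ra-detected cells, 23 had 100 reads or more, and 2 had 1000 or more and held 33.7% of all 13131 Il4ra reads. After each cell was thinned to 150000 reads, all 29 Il4ra-detected cells and 0 of the 39 Il4ra-undetected cells had 2 or more Il4ra reads, so the split was the same at equal depth.

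Il4ra-detected cells had slightly more detected genes (10 or more reads) than Il4ra-undetected cells, with wide overlap. Il4ra-detected cells had 1849, 2829 and 4905 detected genes, against 1387, 2624 and 4893 in Il4ra-undetected cells. Thinned to the same depth, the medians were 2743 and 2507 genes in Il4ra-detected and Il4ra-undetected cells. Total gene reads were 623183, 1328264 and 2047398 in Il4ra-detected cells, against 659524, 1195286 and 2210211 in Il4ra-undetected cells. Mitochondrial reads were 1.55%, 4.56% and 10.1% in Il4ra-detected cells, against 2.26%, 4.36% and 18.9% in Il4ra-undetected cells. The means went the other way from the medians, at 4.74% in Il4ra-detected and 5.51% in Il4ra-undetected cells. Il4ra-detected cells made up 6 of the 23 cells with the fewest detected genes (26.1%), 12 of the middle 22 (54.5%) and 11 of the 23 with the most (47.8%). Detected genes were therefore a covariate in every difference below.

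**Figure D1:**
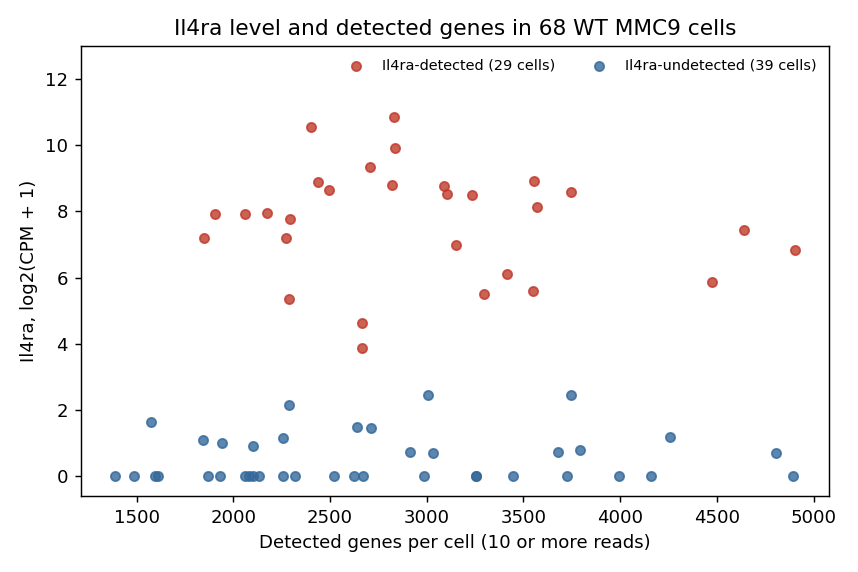
Il4ra level of each cell, as log2(CPM + 1), against its number of detected genes, for 29 Il4ra-detected and 39 Il4ra-undetected cells. The groups are apart on the vertical axis, which defined them, and both spread over most of the range of detected genes, with few Il4ra-detected cells below 2000.

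Both groups carried the mast cell programme. All 14 mast cell markers, among them Kit, Fcer1a, Cpa3, Hdc, Gata2 and Mcpt1, were found in each group, with a median of 14 per Il4ra-detected cell and 13 per Il4ra-undetected cell, and none passed the size rule given below. Of the other lists, 5 of 14 macrophage and monocyte markers (among them C1qc and Adgre1), 7 of 9 neutrophil, 14 of 18 epithelial, 4 of 13 B and plasma cell and 4 of 11 dendritic cell markers were at 0 reads in all kept cells. The macrophage and monocyte list summed to 18.1, 1055 and 5326 CPM in Il4ra-detected cells and 0, 721 and 3734 CPM in Il4ra-undetected cells; 4 of its 14 genes were found in Il4ra-detected cells and 5 in Il4ra-undetected cells. The T cell list, with 3 of 11 genes found in each group and Cd4, Cd8a and Cd28 at 0, had medians of 40.6 and 6.34 CPM in Il4ra-detected and Il4ra-undetected cells. Cx3cr1 of the first list (1.52) and Cd3e of the second (1.20) were higher in Il4ra-detected cells by the size rule. The B and plasma cell list had 5 of 13 genes found in Il4ra-detected cells and 6 in Il4ra-undetected cells, summed to 1.37, 13.7 and 690 CPM in Il4ra-detected cells and 0.99, 22.9 and 1308 CPM in Il4ra-undetected cells, and its gene Igha was lower (-1.07). The highest sums of the dendritic cell list were 1271 CPM in Il4ra-detected and 4786 CPM in Il4ra-undetected cells, and of the epithelial list 254 and 787 CPM. For the stromal and endothelial list they were 1767 and 1410 CPM, and for the ILC2 (type 2 innate lymphoid cell) list 1270 and 2418 CPM. Of the 12 ILC2 genes, 6 were found in Il4ra-detected and 4 in Il4ra-undetected cells. The basophil list shares Fcer1a, Ms4a2 and Gata2 with the mast cell list. It had 9 of 11 genes found in Il4ra-detected and 10 in Il4ra-undetected cells, with medians of 11576 and 12623 CPM. The progenitor list had 4 and 5 of 7 genes found in the same groups, with medians of 1645 and 1004 CPM. The part of these markers in the other results was not tested.

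For each gene the difference was taken in mean log2(CPM + 1), Il4ra-detected minus Il4ra-undetected, with detected genes as a covariate. A gene passed the size rule when this difference was 1 or more in size and had the same sign in the 34 cells with fewer detected genes and in the 34 with more. Of 4752 genes with 10 or more reads in at least 20% of cells, 385 (8.1%) were higher and 309 (6.5%) lower in Il4ra-detected cells, 14.6% in either direction. Without the covariate the counts were 537 higher and 194 lower, and the median of all genes was 0.18, against 0.01 with it. No gene other than Il4ra had groups that did not overlap. The spread between cells was large: the median SD of a gene was 3.03 in Il4ra-detected cells and 3.02 in Il4ra-undetected cells, while the differences had an SD of 0.73 over genes. A difference of 1 is thus small beside the spread of single cells, and the values below describe these 68 cells. How far means would differ between groups of the same sizes drawn at random from these cells was not measured. How many of the 4752 genes would pass the size rule in such groups was not tested either. The counts of 385 and 309 therefore do not show that more genes differed than random groups would give.

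The membership of these gene sets also depended on where the 16 cells with 1 to 5 Il4ra reads were placed. With a threshold of 1 Il4ra read the rule gave 397 higher and 410 lower genes, of which 152 and 136 were shared with the sets above. With cells of 1 to 5 reads left out it gave 485 higher and 429 lower, sharing 280 and 200.

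**Figure D2:**
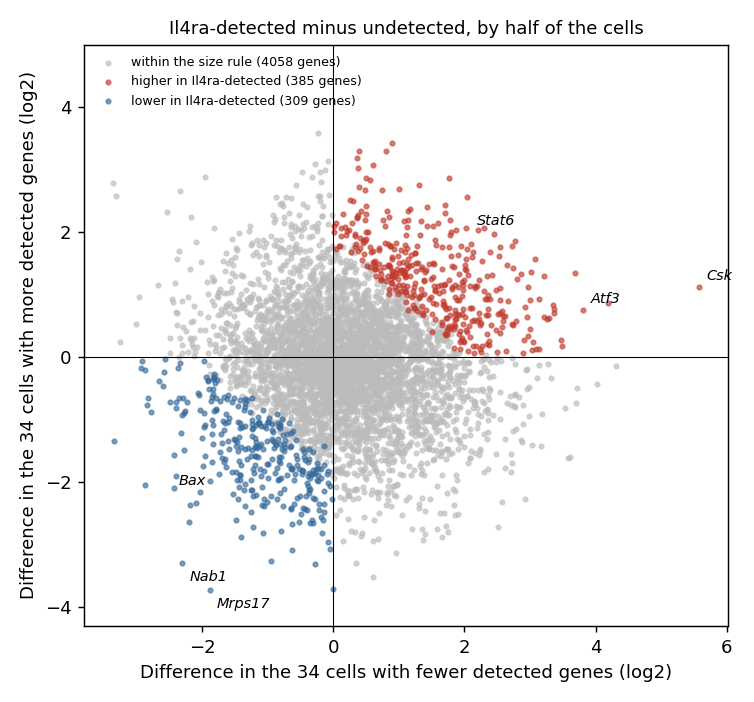
Difference in mean log2(CPM + 1) between Il4ra-detected and Il4ra-undetected cells for each of 4752 genes, in the 34 cells with fewer detected genes (horizontal) and the 34 with more (vertical). Red and blue points are the 385 genes higher and 309 lower by the size rule, which picks the upper right and lower left; most genes lie near 0 on both axes.

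Among the receptor chains, Il2rg was nearly universal and Il13ra1 reached the detection threshold in no cell. Il2rg was detected in 28 of 29 Il4ra-detected cells and 38 of 39 Il4ra-undetected cells. Its levels were 0.75, 634 and 2029 CPM in Il4ra-detected cells, against 3.22, 855 and 2858 CPM in Il4ra-undetected cells, which overlapped almost fully. The adjusted difference was -0.65, all of it in the cells with fewer detected genes (-1.32 there), and did not pass the size rule. Il13ra1, the type II partner, and Il2rb, a chain of the IL-2 and IL-15 receptors, reached 10 reads in 0 of 29 and 0 of 39 cells, which leaves exact upper limits of 11.9% of Il4ra-detected and 9.03% of Il4ra-undetected cells. The decoy receptor Il13ra2 had no reads. Per length, mean levels in Il4ra-detected cells were 60.6 RPKM (CPM per kilobase of gene length) for Il4ra, 292 for Il2rg and 109 for Stat6. In Il4ra-undetected cells Il2rg was at 402 and Stat6 at 67.1 RPKM.

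No measured JAK kinase passed the size rule. Jak1 was detected in 27 of 29 Il4ra-detected cells and 35 of 39 Il4ra-undetected cells, with a difference of 0.03. Tyk2 was detected in 10 and 11 cells of the Il4ra-detected and Il4ra-undetected groups (-0.09) and Jak2 in 14 and 17 (-0.29). Jak3, the kinase bound to the common gamma chain, was found in 6 Il4ra-detected and 7 Il4ra-undetected cells, under the 20% needed for a difference.

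Stat6 showed the largest difference of the receptor pathway. It was detected in 23 of 29 Il4ra-detected cells (79.3%, exact 95% interval 60.3% to 92.0%), against 20 of 39 Il4ra-undetected cells (51.3%, 34.8% to 67.6%). Its levels were 0, 188 and 2353 CPM in Il4ra-detected cells, against 0, 34.96 and 1763 CPM in Il4ra-undetected cells. Cells with no Stat6 and cells with over 1000 CPM occurred in both groups. Mean log2(CPM + 1) was 6.54 ± 3.54 in Il4ra-detected cells and 4.64 ± 4.08 in Il4ra-undetected cells (SD over 29 and 39 cells). The adjusted difference was 1.99, with 2.02 in the cells with fewer detected genes and 2.06 in those with more, and 1.81 to 2.24 when each cell was left out in turn. At equal depth 72.4% of Il4ra-detected and 51.3% of Il4ra-undetected cells had Stat6. Level did not follow level: among the 29 Il4ra-detected cells the rank correlation of Stat6 with Il4ra was 0.05.

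Over all kept cells, 23 had Il4ra, Il2rg and Stat6 transcripts at once, 6 had Il4ra without Stat6, 20 had Il2rg and Stat6 without Il4ra, and 1 had none of the 3.

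Of the 25 measured genes of IL-4 receptor signalling, 5 were higher and 0 lower in Il4ra-detected cells, against 8.1% and 6.5% of all genes, and 17 lay above 0. The list's median difference was 0.29, against 0.01 over all genes, and -0.24 with the threshold of 1 Il4ra read. Besides Stat6 the 5 were Stat5a (1.51), a STAT used by many cytokine receptors, Ptpn11 (1.16), the phosphatase SHP-2, Irs2 (1.15), an adaptor that binds the receptor's tail, and Inpp5d (1.07), the lipid phosphatase SHIP-1. Stat5a was found in 16 of 29 Il4ra-detected cells and 12 of 39 Il4ra-undetected cells, with levels of 0, 64.2 and 659 CPM, against 0, 0.90 and 250 CPM. The groups overlapped, and no Il4ra-undetected cell reached the highest Il4ra-detected values.

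Cish and Batf were measured and did not pass the rule. Cish, a STAT5 target that inhibits cytokine signalling, was detected in 28 Il4ra-detected and 36 Il4ra-undetected cells (0.52). Batf, an AP-1 family factor, was detected in 22 and 26 cells of the Il4ra-detected and Il4ra-undetected groups (0.41), and its partner Irf4 in 2 and 7. At the threshold of 1 Il4ra read Cish was at -0.75 and Batf at -0.27. The inhibitors Socs1, in 0 and 3 cells, and Socs3, in 5 and 3, were too rare to measure. Of 10 measured genes that IL-4 and STAT6 are known to induce, Egr2 was higher (1.11), a share near the 8.1% of all genes, and Cd200r1 (-1.07) and Xbp1 (-1.04) were lower, against 6.5% of all genes. The list median was 0.15, and changed sign at the threshold of 1 Il4ra read (-0.10) and with cells of 1 to 5 reads left out (-0.14).

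**Figure D3:**
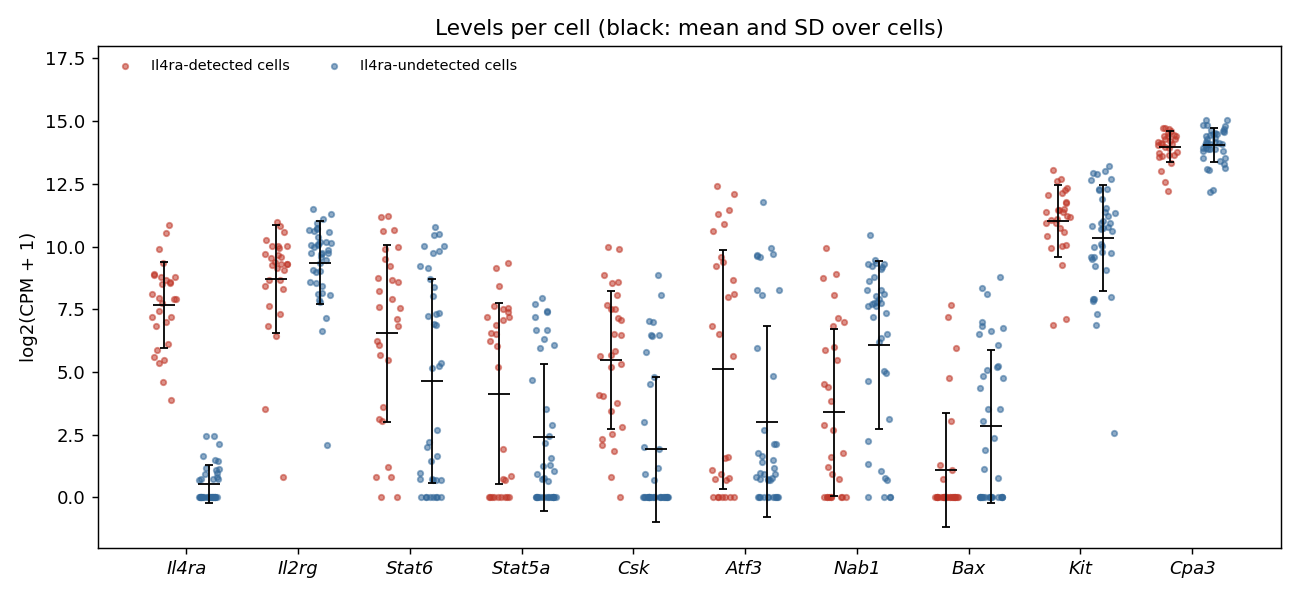
Level of 10 genes in each cell as log2(CPM + 1), with Il4ra-detected cells left of Il4ra-undetected cells for each gene and black bars for the mean and SD over 29 and 39 cells. Apart from Il4ra, which defined the groups, the groups overlap for every gene shown; Stat6, Stat5a, Csk and Atf3 have higher means and Nab1 and Bax lower means in Il4ra-detected cells, and Cpa3 is near level (-0.10), while Kit differs by 0.65.

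Of the cytokines, IgE receptor chains and granule enzymes, Tpsab1 alone passed the size rule. Il4, a gated gene, was detected in 23 of 29 Il4ra-detected and 31 of 39 Il4ra-undetected cells, with medians of 151 and 122 CPM and a difference of 0.14. Il6 was detected in 21 of 29 Il4ra-detected and 30 of 39 Il4ra-undetected cells, and at -0.97 fell just short of the size rule. Il13 was found in 8 of 29 Il4ra-detected cells and 4 of 39 Il4ra-undetected cells, too few to measure. Il9, for which these cells are named, was found in 1 Il4ra-detected and 0 Il4ra-undetected cells, and that cell held 99.8% of its 1139 reads. Of the surface and granule genes, Kit differed by 0.65, Il1rl1 by 0.81, the IgE receptor chain Fcer1a by -0.06, the carboxypeptidase Cpa3 by -0.10, the chymases Mcpt1, Mcpt2 and Cma1 by 0.78, 0.35 and -0.28, and Gzmb by -0.76. The split of reads between the near-identical Mcpt1 and Mcpt2 is uncertain. Fcer1a medians were 6120 CPM in Il4ra-detected and 6134 CPM in Il4ra-undetected cells. Tpsab1, a tryptase that shares sequence with Tpsb2, was lower (-1.42), 1 of 12 measured granule proteases.

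Immediate early genes, which mast cells switch on within minutes of a stimulus, were the pathway list with the highest median. Of 22 measured, 9 were higher and 0 lower in Il4ra-detected cells, against 8.1% and 6.5% of all genes, 19 lay above 0, and the median was 0.64; it was 0.41 to 0.84 across the other settings tried. Atf3, a stress-induced transcription factor, had the largest difference (2.23), followed by the nuclear receptor Nr4a3 (1.62), Zfp36, which destabilizes cytokine mRNAs (1.31), Nr4a1 (1.27), the MAP kinase phosphatase Dusp4 (1.25), Jun (1.22), Egr2 (1.11), Nr4a2 (1.11) and Fosb (1.05). Nr4a1 levels were 1.62, 713 and 4085 CPM in Il4ra-detected cells, against 0.70, 193 and 2483 CPM in Il4ra-undetected cells. Atf3 was detected in 15 of 29 Il4ra-detected cells and 12 of 39 Il4ra-undetected cells, at 0, 49.3 and 5524 CPM, against 0, 0.99 and 3553 CPM. Both genes overlapped over nearly their whole range. The best known members, Egr1 (0.15) and Fos (0.36), were near level.

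Surface receptors were the pathway list with the lowest median, -0.84 over 14 measured genes, of which 6 were lower and 1 higher in Il4ra-detected cells, against 6.5% and 8.1% of all genes. The median was -0.95 to -0.53 across the other settings tried. The lower ones were the aryl hydrocarbon receptor Ahr (-1.50), an intracellular ligand-activated factor kept in this list, Cd48 (-1.47), a ligand of Cd244, the CD200 receptors Cd200r3 (-1.43) and Cd200r1 (-1.07), whose reads may be split between related genes, the ATP-gated channel P2rx4 (-1.34) and the adenosine receptor Adora2a (-1.22). Cd48 levels were 0, 215 and 909 CPM in Il4ra-detected cells, against 0, 394 and 1414 CPM in Il4ra-undetected cells, and most cells of both groups lay in the shared range. The ATP-gated channel P2rx7 differed the other way (1.94): it was detected in 25 of 29 Il4ra-detected cells and 21 of 39 Il4ra-undetected cells, with medians of 148 and 18.9 CPM.

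Among cytokine receptors other than Il4ra, 1 of 10 measured was higher, near the 8.1% of all genes, and 2 were lower, against 6.5%. Tgfbr2, the signalling receptor for TGF-beta, was higher (1.91), and Il9r (-1.60) and Ifngr1 (-1.53) were lower. Il9r, which pairs with the same gamma chain as Il4ra, was detected in 6 of 29 Il4ra-detected cells and 15 of 39 Il4ra-undetected cells.

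In IgE receptor signalling 3 of 25 measured genes were higher and 0 lower, against 8.1% and 6.5% of all genes, with a median of 0.13 that changed sign at the threshold of 1 Il4ra read (-0.03) and with cells of 1 to 5 reads left out (-0.14). The 3 were Rasgrp4, a mast cell Ras activator (1.61), the inhibitory receptor Cd300a (1.46) and the PI3 kinase subunit Pik3cd (1.34). The proximal kinases Lyn (-0.02), Fyn (-0.42) and Syk (-0.65) did not pass. At the threshold of 1 Il4ra read, Cd300a was at -0.55.

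Of 13 glycolysis genes 3 were higher, of 19 unfolded protein response genes 2, and of 9 eicosanoid genes 2, with 1 lower, against 8.1% higher and 6.5% lower of all genes. In glycolysis (median 0.14, or -0.07 with cells thinned to 150000 reads) Pfkp (1.91) and Hk2 (1.82), which catalyse regulated early steps, and Eno1 (1.32) were higher. In the unfolded protein response, where the share was near that of all genes, the sensor Atf6 (2.07) and Creld2 (1.11) were higher. The median of that list was 0.20, or -0.02 at the threshold of 1 Il4ra read. The leukotriene enzyme Alox5 (1.09) and its activating protein Alox5ap (1.03) were higher and the prostaglandin enzyme Ptgs1 (-1.19) lower. Alox5 levels were 442, 2735 and 6707 CPM in Il4ra-detected cells, against 10.6, 1424 and 4716 CPM in Il4ra-undetected cells.

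Of 11 apoptosis and survival genes, the survival gene Bcl2 (1.73), Mcl1 (1.004) and the pro-apoptotic Bad (1.15) were higher, and the pro-apoptotic Bax (-1.85) and Casp8 (-1.10) lower, against 8.1% and 6.5% of all genes. Bcl2 was detected in 18 of 29 Il4ra-detected and 13 of 39 Il4ra-undetected cells, but its mean levels were 150 and 164 CPM. Its higher value thus lies in the share of cells with the transcript and not in its mean CPM. Bax was detected in 4 of 29 Il4ra-detected cells, against 16 of 39 Il4ra-undetected cells. Of 11 proliferation genes, Nusap1 (-1.55), Ccnb2 (-1.17) and Stmn1 (-1.15) were lower, against 6.5% of all genes, and 0 higher, and the list median was -0.30, or 0.06 without the covariate, while Mki67 was at 0.45 and detected in 8 Il4ra-detected and 7 Il4ra-undetected cells. Ccnb2 changed sign at the threshold of 1 Il4ra read (0.36). No measured gene passed among 6 cytokines, 4 chemokines, 15 NF-kB genes and 7 interferon response genes, and 1 of 32 oxidative phosphorylation genes was lower (Sdhc, -1.23). Of 25 mast cell identity genes, Rab27b, which docks secretory granules (1.46), and the inhibitory receptor Lilrb4a (1.10) were higher, close to the 8.1% of all genes. In the cells with more detected genes they differed by only 0.11 and 0.19.

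**Figure D4:**
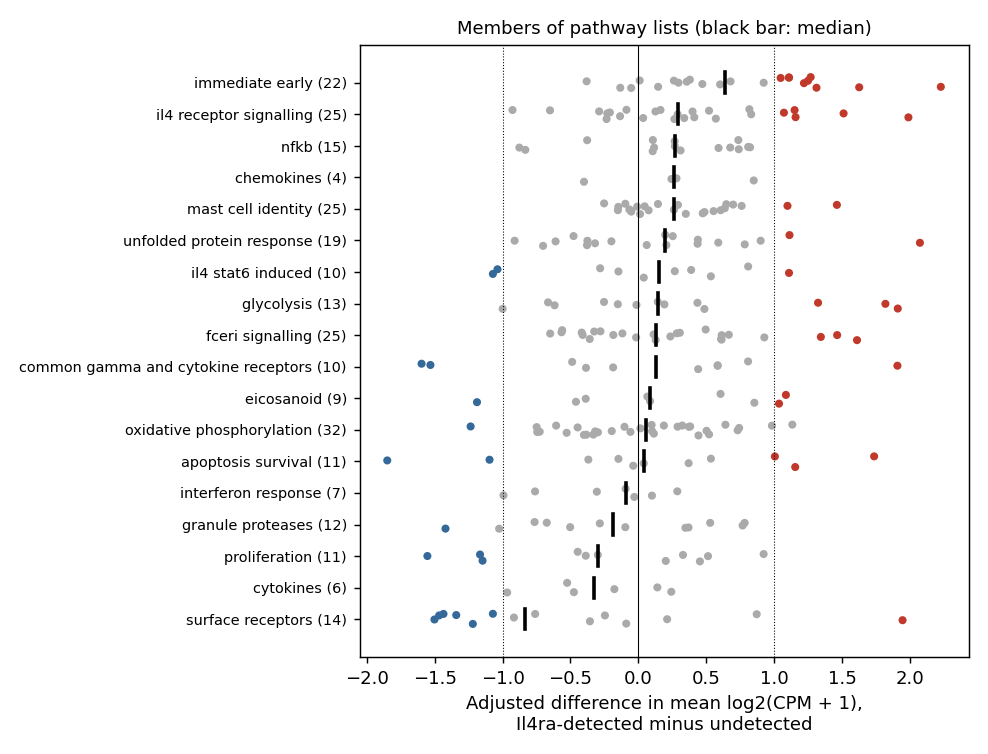
Adjusted difference in mean log2(CPM + 1), Il4ra-detected minus Il4ra-undetected cells, for each measured gene of 18 pathway lists (number measured in brackets), with black bars for list medians and dotted lines at 1 and -1. Red and blue points passed the size rule as higher and lower; immediate early genes lie furthest to the right and surface receptors furthest to the left.

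Csk had the largest difference of any gene after Il4ra. Csk encodes the kinase that phosphorylates the inhibitory tail tyrosine of Src family kinases such as Lyn and Fyn, and lies on chromosome 9 at 57626646 to 57653631 (minus strand). It was detected in 22 of 29 Il4ra-detected cells (75.9%, 56.5% to 89.7%), against 11 of 39 Il4ra-undetected cells (28.2%, 15% to 44.9%). Csk was picked for its difference out of 4752 genes in these same cells. The intervals cover counting error only and test nothing. Its levels were 0, 50.9 and 1002 CPM in Il4ra-detected cells, against 0, 0 and 461 CPM in Il4ra-undetected cells. Most Il4ra-undetected cells thus had no Csk, but the ranges overlapped. Mean log2(CPM + 1) was 5.49 ± 2.74 in Il4ra-detected cells and 1.93 ± 2.89 in Il4ra-undetected cells (SD, n = 29 and 39 cells). The adjusted difference of 3.27 was 5.57 in the cells with fewer detected genes and 1.13 in those with more, and 3.06 to 3.45 when each cell was left out in turn.

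The next 10 genes described here, all among the 12 highest, differed by 2.19 to 2.49. They included Klf7, a Krüppel-like transcription factor (2.23), Dgkd, a diacylglycerol kinase (2.21), Mbnl2 (2.30) and Scaf11 (2.30), both splicing factors, Gga2, a Golgi sorting adaptor (2.24), and Asap1, an Arf GTPase activator (2.23). Smim3 (2.49), Dhx40 (2.22) and Tm2d2 (2.19), with Atf3, made up the rest. All 10 had cells at 0 in the Il4ra-undetected group and overlapping ranges.

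The 12 lowest differed by -2.88 to -2.05. Nab1, a corepressor of EGR factors, was detected in 13 of 29 Il4ra-detected cells and 29 of 39 Il4ra-undetected cells, with medians of 5.54 and 199 CPM (-2.88). Mrps17 (-2.76; 6 and 21 cells of the Il4ra-detected and Il4ra-undetected groups) and Mrpl32 (-2.17) encode mitochondrial ribosomal proteins, and Sptlc2 (-2.49; 11 and 28 cells) encodes a subunit of the enzyme that starts sphingolipid synthesis. The others were the ubiquitin ligase Itch (-2.36), Tmx3 (-2.30), Poldip3 (-2.27), the TFIID subunit Taf12 (-2.22), Efcab14 (-2.16), Dipk1a (-2.10), the splicing factor Prpf39 (-2.07) and Lrrc8a (-2.05), a subunit of the volume-regulated anion channel. Lrrc8a was detected in 5 of 29 Il4ra-detected and 17 of 39 Il4ra-undetected cells, but its mean levels were 75.8 and 78.6 CPM. It had only 6, 6 and 4 reads in the IL4RaY709F, IL4Ra-/- and WT bulk libraries.

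Among the genes whose level was most like that of Il4ra, by rank correlation over the 68 cells after adjustment for detected genes, were Csk (0.50), Itm2c (0.42), Klf7 (0.40), Smim3 (0.38), Dgkd (0.36), Pdzd8 (0.36) and Soat1 (0.35). The cells share 1 sample, and with 23 Il4ra values at 0 the coefficient is set mostly by the split itself. Within the 29 Il4ra-detected cells Csk was at 0.04. Itm2c, a transmembrane protein of the BRICHOS family, was the most widely expressed of these 7: it was found in 28 of 29 Il4ra-detected and 34 of 39 Il4ra-undetected cells, with medians of 499.7 and 177 CPM.

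The promoters of the gene sets were searched for the same motifs. Windows were searched for 302 higher, 233 lower and 3525 of all measured genes, again without chromosome 18. The STAT motif was in 6.62% of those higher, 5.58% of those lower and 5.42% of all measured. The AP-1 motif was in 7.28%, 3.00% and 5.62% of the same 3 sets, the CRE motif in 4.64%, 4.72% and 3.46%, and the octamer in 2.98%, 2.15% and 3.18%.

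The bulk libraries, which the choice of cells did not use, were compared between receptor genotypes for the same genes. Il4ra itself had 1831, 350 and 806 reads in IL4RaY709F, IL4Ra-/- and WT (787, 138 and 353 TMM-scaled CPM). The IL4Ra-/- library thus kept Il4ra reads. The exons that the allele lacks are not named in the sources used here, and the recipient mice were WT. The origin of these reads was not tested. The plasma cell gene Igha had 3748, 17406 and 8453 reads in IL4RaY709F, IL4Ra-/- and WT, and its part in the ratios was not tested. With 1 library per genotype the ratios have no replicate check, and in bulk RNA fewer cells with a transcript and less of it per cell cannot be told apart. A gene passed the bulk rule with 50 or more reads, a ratio of at least 2-fold and a 95% counting interval without 1.

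In the direction of receptor activity, genes higher in Il4ra-detected cells passed no more often than all genes. The counts were small, and no difference from all genes is read from them. Between IL4RaY709F and IL4Ra-/-, 15 of 365 genes higher in Il4ra-detected cells were higher in IL4RaY709F (4.11%), as were 6 of 276 genes lower in Il4ra-detected cells (2.17%), against 4.81% of the 4011 genes measured in both. Lower in IL4RaY709F were 4 genes of each set (1.10% and 1.45%), against 0.848% of all. The median log2 ratios of the 3 sets were 0.11, 0.10 and 0.13. Between IL4RaY709F and WT, 2 of 361 (0.554%) and 3 of 270 (1.11%) were higher in IL4RaY709F, against 1.3% of all, and 0 and 1 were lower, against 0.254% of all. Between IL4Ra-/- and WT, 1 of 364 (0.275%) and 4 of 275 (1.45%) were lower in IL4Ra-/-, against 1.08% of all, and 2 of each set were higher, against 0.578%. The 3 comparisons were made from the same 3 libraries, so any 2 of them share 1 library and they are not independent.

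A few genes passed both rules in the direction of receptor activity. Dusp4 had 2860, 614 and 1430 reads in IL4RaY709F, IL4Ra-/- and WT, a log2 ratio of IL4RaY709F to IL4Ra-/- of 2.35 (2.22 to 2.48). Stat5a had 1017, 404 and 604 reads (1.46, 1.29 to 1.63), and Atf6, Pik3cd, Hk2 and Smim3 had ratios of 1.14, 1.28, 1.08 and 1.45. Mt2, a metallothionein, chosen after its values were seen, had 112, 16 and 30 reads (2.94, 2.17 to 3.79). Stmn1, lower in Il4ra-detected cells, had 19, 72 and 40 reads (-1.79, -2.61 to -1.05). Stat6 did not pass (0.24), nor did Csk (0.21).

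Other genes went opposite ways. Serpina3g, a protease inhibitor of a cluster with near-identical members, also chosen after its values were seen, was lower in Il4ra-detected cells (-1.12) but had 1581, 171 and 358 reads in IL4RaY709F, IL4Ra-/- and WT (3.34, 3.11 to 3.57). Cd200r1, lower in Il4ra-detected cells, was higher in IL4RaY709F than in WT (1.28, 0.77 to 1.81). Ptgs1, lower in Il4ra-detected cells, was higher in IL4RaY709F than in IL4Ra-/- (1.45). Batf, with a bulk ratio of 3.15 between these libraries, and Cish, with 1.54, differed by only 0.41 and 0.52 between Il4ra-detected and Il4ra-undetected cells.

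**Figure D5:**
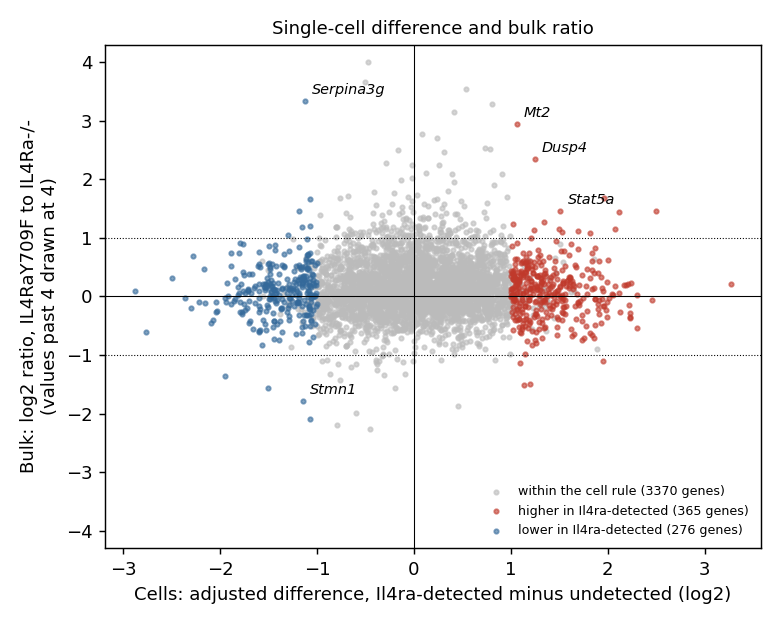
Log2 ratio of IL4RaY709F to IL4Ra-/- in bulk (vertical) against the adjusted difference between Il4ra-detected and Il4ra-undetected cells (horizontal) for 4011 genes measured in both, with dotted lines at 2-fold in bulk. Red and blue points, higher and lower in Il4ra-detected cells by the size rule, spread about the same median ratio as the grey ones, with Dusp4, Mt2 and Stat5a above and Serpina3g at the upper left.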

How the data were processed

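For each gene the authors deposited the raw read count, a whole number, in 81 single cells and 3 bulk libraries. HISAT and featureCounts (Subread 2.0.0) are the aligner and counter named, per the submitters' processing notes, which list GRCm38 and mm9 without their roles. Of 55471 gene IDs in the count table, 55144 were in GENCODE M21 and 54851 of those (99.5%) had the same GRCm38 coordinates. Strand, multi-mapping reads and molecular identifiers are not described in the sources used here; reads of overlapping genes and of near-identical genes cannot be told apart and intervals cover counting error only. The number of per-sample columns matching no sample was 0.

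The cells, their threshold, the gene lists and the size rule were chosen with earlier results of these data known. Of 13 cells left out, 11 had 20% or more mitochondrial reads, 2 had 10% or more immunoglobulin reads (1 of them both) and 1 had under 10000 reads. Kept cells had 623183 to 2210211 gene reads. No 2 cells had identical counts. No doublet caller was run on the singly sorted cells. Counts were scaled to CPM and log2 transformed with a pseudocount of 1. On this scale a difference also reflects the share of cells with no reads of a gene. With a pseudocount of 10, only 110 genes passed as higher and 60 as lower. A linear fit on group and detected genes (numpy 2.4.6, Python 3.11.15) gave the difference. No p-value is given because cells of 1 sample are not replicates. The fit was tested on simulated data with planted changes larger than the size rule. This does not show how many unchanged genes would pass the rule in these cells. Shares have exact (Clopper-Pearson) 95% intervals. Bulk counts (2521791 reads in IL4RaY709F, 2330628 in IL4Ra-/- and 2299793 in WT) were scaled with TMM factors (edgeR 4.0.16), and ratios have exact conditional binomial 95% intervals. RPKM was computed from the counts and deposited gene lengths.

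Named genes were 24 always named, the 12 largest differences past the size rule in each direction, up to 4 members a pathway list that passed it, and the 8 genes most like Il4ra by rank correlation; other list members are given to describe their list, and those named outside the rule are marked. Gene models, pseudogenes, mitochondrial and immunoglobulin genes were counted but not named (12 of those higher and 15 of those lower). A few genes that the rule or a list would name are not reported here. Alternatives were other Il4ra thresholds, covariates, scalings (also DESeq2 1.42.0 size factors), pseudocounts, filters, thinning, sizes and leaving out each cell; leaving out the 2 cells with 1000 or more Il4ra reads was added after the data were seen.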

Additional observations from a re-analysis of the deposited data

Results flagged for a closer look

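Of the 13 cells left out, 2 had more Il4ra reads than the threshold of 10, above the 5 reads of the highest Il4ra-undetected cell. They had 119 and 195 Il4ra reads (727 and 653 CPM), and 24.6% and 71.6% of their reads were mitochondrial. The other 11 cells left out had under 10 Il4ra reads.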

How the results depend on the processing

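The main counts were 385 higher and 309 lower genes. A pseudocount of 10 gave 110 and 60, a size of 1.5 gave 125 and 101, and no adjustment for detected genes gave 537 and 194. All other settings stayed within 1.5 times: 355 to 485 higher and 210 to 431 lower. Leaving out each cell in turn gave 370 to 411 higher and 302 to 332 lower. Without the 2 cells of highest Il4ra, a setting chosen after seeing the data, there were 409 and 309, of which 321 and 265 were shared with the main sets. Without limits on mitochondrial and immunoglobulin reads there were 382 and 210, and 289 and 191 were shared. Of 910 values (65 named genes past the size rule under 14 settings) 2 changed sign, both at a threshold of 1 Il4ra read: Ccnb2 at 0.36 and Cd300a at -0.55. These genes were picked for their difference in the same cells, so their kept signs are no independent support. A threshold of 10 CPM, 1 of the 14 settings, left the groups unchanged and gave the same 385 and 309 genes. Of 15 named genes that did not pass, 7 changed sign under at least 1 setting. The difference in median detected genes was 205, and 236 to 561 otherwise. At 1.5-fold in bulk, the shares of genes higher in Il4ra-detected cells were 4.16% (IL4RaY709F over WT), 6.59% (IL4Ra-/- under WT) and 12.1% (IL4RaY709F over IL4Ra-/-), against 5.76%, 8.17% and 16.2% of all genes measured; scaled by total reads the last was 1.92%, against 2.12%. The cause of these shifts was not tested. No paired analysis was possible because the cells form 1 sample and each genotype has 1 bulk library. A transcript under 10 reads can be missed, so an Il4ra-undetected cell may still hold the receptor.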
